A study of Homo sapiens with 18 samples.

Results

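PLC/PRF/5 is a human hepatocellular carcinoma (liver cancer) cell line, and its untreated expression state was set against that of the arrays labelled Hep3B, another hepatocellular carcinoma line. The comparison takes the 3 control arrays of PLC/PRF/5, called PLC here, and the 3 control arrays labelled Hep3B, 6 of the 18 arrays of the series. Cells of both groups grew in RPMI medium and received a non-targeting control siRNA with a lipid transfection reagent, so untreated means without knockdown and not without transfection. The series also holds 3 arrays per line after an siRNA against ATAD2, a bromodomain protein that binds chromatin, and 6 arrays labelled SNU449, another line of the same cancer. Each group stands for 1 cell line, and its 3 samples are replicates of that line, labelled as biological, not of liver tumours. Each line may also have been processed as its own batch, and line and batch cannot be told apart.

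The arrays labelled Hep3B went against their label. Hep3B is known as a line that lacks RB1, the retinoblastoma tumour suppressor, and that secretes albumin and alpha-fetoprotein. RB1 had log2 signals of 8.59, 8.55 and 8.57 in PLC controls and 9.47, 9.44 and 9.51 on the control arrays labelled Hep3B, while the control arrays labelled SNU449 lay between 4.27 and 4.63. ALB, which encodes albumin, had 10.65, 10.52 and 10.65 in PLC and 2.90, 3.16 and 3.02 on the arrays labelled Hep3B, and at least 13.75 on each of those labelled SNU449. The 3 arrays are therefore called Hep3B-labelled throughout, no property of Hep3B is drawn from them, and without them no comparison remains. ATAD2 itself had 9.78, 9.67 and 9.69 on PLC control arrays, against 8.94, 8.93 and 9.02 on Hep3B-labelled control arrays. On the ATAD2 siRNA arrays it had 7.05, 7.17 and 7.06 in PLC and 5.15, 4.70 and 5.65 under the Hep3B label, all below the controls of the same label.

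Hepatocytes secrete most plasma proteins, build lipoproteins and run the urea cycle, under a network of liver-enriched transcription factors such as the FOXA and CEBP proteins. Hepatocellular carcinoma lines keep this programme to different degrees, and some instead express collagens, caveolae and cytoskeletal genes of mesenchymal cells. Many tumour lines also express fetal, placental or germ cell genes that adult liver keeps silent.

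Signals are log2 values per gene after quantile normalization over all 18 arrays, with 1 probe set for each of 19775 genes, and a difference is PLC minus Hep3B-labelled, so that 1 unit is a 2-fold change. A gene was called when its limma p-value, adjusted over all genes, was under 0.05 and the difference was at least 1 in size. By this rule 3642 genes were called, 18.4% of those tested: 1895 were higher in PLC (9.58%) and 1747 lower (8.83%). Of these, 644 were higher and 611 lower by at least 2, and 94 were higher and 86 lower by at least 5. The median SD of a gene between the 3 arrays of a group was 0.0718 in PLC controls and 0.0701 in Hep3B-labelled controls, and 13953 genes passed the adjusted p without the minimum difference.

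The scale of the columns limits any count of higher and lower genes. As deposited, the medians of the PLC control arrays were 4.14 to 4.17 and those of the Hep3B-labelled ones 5.39 to 5.42, while the upper ends of the columns met. Higher genes made up 52.0% of the calls after quantile normalization, 53.2% after cyclic loess, 17.3% on the values as deposited, 89.7% after centring each array on its median and 91.8% after centring and scaling by the median absolute deviation. The difference of the median gene was -0.02, -0.02, -0.62, 0.62 and 0.79 in that order. The calls made up 7.46% of genes higher and 35.6% lower as deposited (43.0% in all), 37.4% and 4.28% after centring (41.6%), 44.8% and 3.98% after centring and scaling (48.7%), and 9.89% and 8.69% after cyclic loess (18.6%), against which the list counts under those scalings are to be read. In all 5 scalings 2065 genes (10.4%) were called in the same direction, 1326 higher (6.71%) and 739 lower (3.74%) in PLC. Counts of list members shifted with the scaling too, also for lists given below with the quantile normalized counts alone. The products of ribosomal protein genes build the ribosome in every cell, and their signals are among the highest. Of 51 measured, limma called none on the deposited or the quantile normalized values. After quantile normalization 17 were higher and 15 lower at an unadjusted limma p under 0.05. At an adjusted one 16 were higher and 15 lower, all by less than the minimum difference. The median difference of the 51 genes was 0.01 after quantile normalization, 0.08 as deposited, -0.28 after cyclic loess, 1.32 after centring and 2.68 after centring and scaling.

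**Figure D1:**
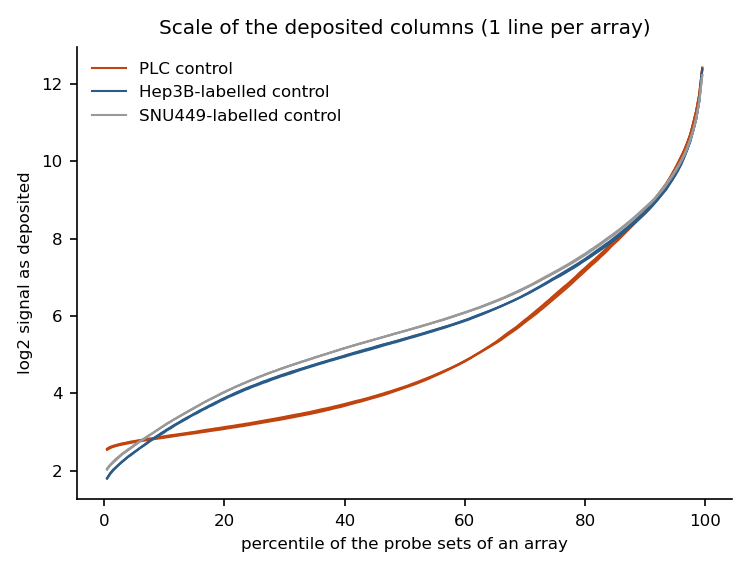
Log2 signal as deposited (vertical axis) at each percentile of an array's probe sets (horizontal axis), 1 line per control array of PLC, Hep3B-labelled and SNU449-labelled cells. The PLC arrays run below the others through the middle of the range, with medians of 4.14 to 4.17 against 5.39 to 5.42 on Hep3B-labelled arrays, and meet them at the top.

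The 12 genes with the largest positive and the 12 with the largest negative differences were dim in one line and bright in the other. MAN1A1, a Golgi mannosidase that trims N-glycans, had log2 signals of 11.50, 11.41 and 11.38 in PLC, against 2.56, 2.62 and 2.53 on Hep3B-labelled arrays, a difference of 8.86 ± 0.06 (SE; limma adjusted p = 1.68e-22). CGA, the alpha subunit shared by pituitary and placental glycoprotein hormones, had 12.99, 12.98 and 13.01 in PLC and 3.96, 4.35 and 4.26 on Hep3B-labelled arrays, a difference of 8.81 ± 0.09. Both genes were high on every PLC array and low on every Hep3B-labelled array. Lack of overlap between the groups of arrays was a condition for choosing these genes. The other 10 on the PLC side were CXCL5, MAGEA6, LYZ, NTS, APOB, MAGEA4, LIN28B, ID4, FABP5 and AGTR1, with differences of 8.73 down to 7.72. They include NTS, the precursor of the peptide neurotensin (8.62), LYZ, the secreted antibacterial enzyme lysozyme (8.69), and AGTR1, a receptor of angiotensin II (7.72).

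On the other side EDIL3, a secreted integrin-binding glycoprotein, had 2.59, 2.97 and 3.03 in PLC, against 12.74, 12.74 and 12.79 on Hep3B-labelled arrays, a difference of -9.89 ± 0.10 (SE; limma adjusted p = 7.76e-21), larger in size than that of any other gene of this group of 24. S100A6, a calcium-binding protein of the S100 family, had 4.30, 4.28 and 4.32 in PLC and 12.80, 12.87 and 12.87 on Hep3B-labelled arrays, a difference of -8.55. Here too, lack of overlap was a condition of the choice. The remaining 10 were KCNJ16, SRGN, FSTL1, VCAN, COL6A3, COL4A2, ABI3BP, PLK2, COL1A2 and COL4A1, from -7.90 to -7.52. Most of these encode matrix proteins or proteoglycans: VCAN is versican, SRGN is serglycin, ABI3BP binds matrix, and 4 are collagen chains. Of these 24 genes, 17 had a further probe set, and for all 17 at least 1 further probe set was called in the same direction and none in the opposite one.

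**Figure D2:**
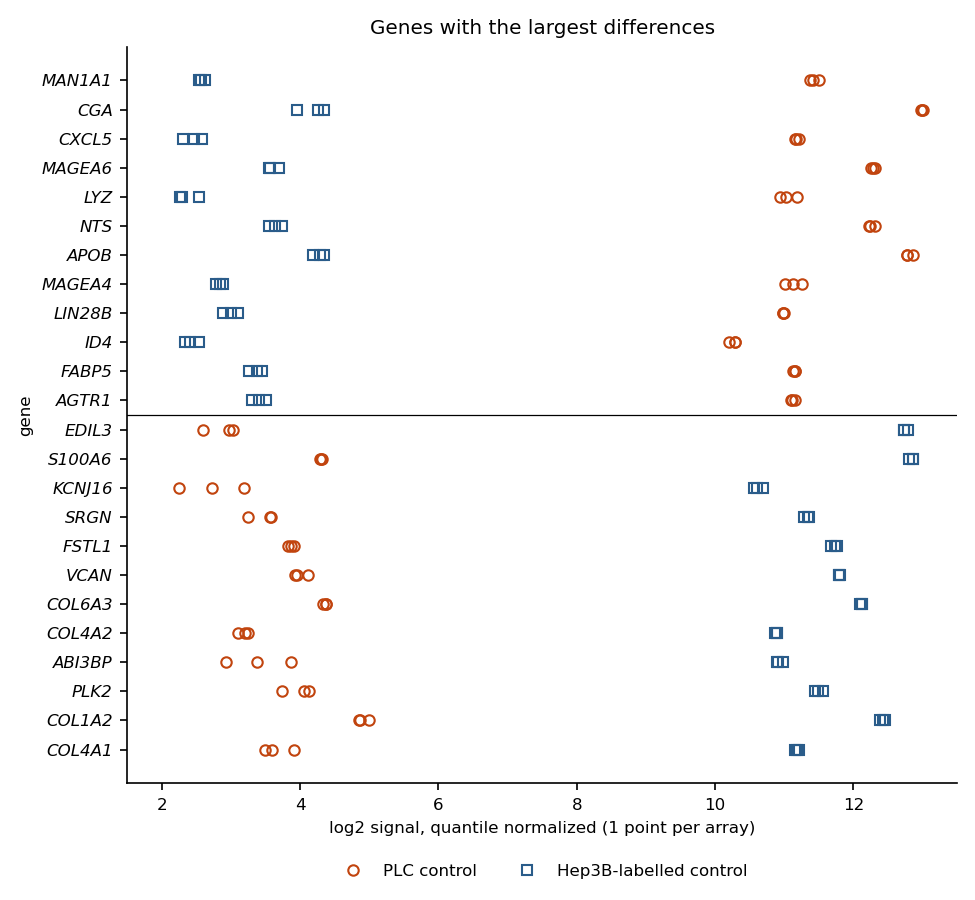
Log2 signal after quantile normalization (horizontal axis) on each PLC control array (circles) and each Hep3B-labelled control array (squares) for the 12 genes with the largest positive differences (above the line) and the 12 with the largest negative ones (below it). The 2 groups of arrays are separated by more than 7 log2 units between means in every row; KCNJ16 and ABI3BP have the widest spread among the PLC arrays, with an SD of 0.47 each.

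Among hepatocyte secretory genes more were called higher than lower in PLC. Of 25 measured plasma carrier and acute phase protein genes 12 rose and 1 fell, with a median difference of 0.72; the median was -0.01 on the values as deposited, with 11 higher and 9 lower. ALB rose by 7.58 ± 0.14 (SE; limma adjusted p = 9.14e-18), SERPINA1 (alpha-1-antitrypsin) by 6.57, AMBP (alpha-1-microglobulin and bikunin) by 6.25 and ITIH2 (a chain of the inter-alpha-trypsin inhibitors) by 5.84. These values can rest on the probe set used. One of the 3 further probe sets of ALB was called, in the same direction. With only probe sets with no mark for cross-hybridisation in their ID, ALB differed by 0.22 (limma adjusted p = 0.0933) and AMBP by 0.57, neither called, and the median of the list was 0.22. The gene that fell was SERPINA3, alpha-1-antichymotrypsin, with 4.97, 5.02 and 5.04 in PLC and 8.77, 8.74 and 8.86 on Hep3B-labelled arrays, a difference of -3.78. The summed log2 level of 10 hepatocyte markers, ALB, APOB and SERPINA1 among them, was 97.6 to 98.0 on PLC control arrays, 50.7 to 51.8 on Hep3B-labelled ones and 119.8 to 120.0 on SNU449-labelled ones, so PLC lay between the other labels.

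Lipoprotein genes rose without exception among those called: 9 of 18 measured apolipoprotein and lipoprotein assembly genes were higher and none was lower, with a median of 0.71. At an adjusted limma p under 0.05, 2 were lower, by less than the minimum difference. In the other 4 scalings 9 or 10 were higher, and 5 were lower on the values as deposited only. APOB, the structural protein of very low density lipoprotein, had 12.86, 12.78 and 12.77 in PLC, against 4.18, 4.29 and 4.35 on Hep3B-labelled arrays, a difference of 8.53. APOA2, a protein of high density lipoprotein, rose by 6.83, APOC1 by 5.97 and APOM, the carrier of sphingosine-1-phosphate, by 4.04. The levels of APOB in PLC were close to the mean of 12.85 on SNU449-labelled arrays.

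Among 21 measured liver-enriched transcription factor genes 10 were higher and 2 lower, with a median of 0.80, and 10 to 14 were higher in the other scalings. HNF4G, a nuclear receptor of gut, had 8.11, 7.99 and 8.02 in PLC and 2.30, 2.42 and 2.42 on Hep3B-labelled arrays, a difference of 5.67. PROX1, a homeobox factor of the early liver bud, rose by 5.11, FOXA3 by 3.92 and CEBPA by 2.98. NR2F1, an orphan nuclear receptor of the COUP family, fell by 3.35. CEBPD, which is induced in the acute phase, fell by 1.42. Its difference was -0.13 and not called after centring, and turned to 0.57 after centring and scaling.

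Of 25 measured urea cycle and amino acid catabolism genes 12 were higher and 3 lower, with a median of 0.98 (0.85 to 2.48 over the 5 scalings). ASS1, argininosuccinate synthase of the urea cycle, had 12.88 on all 3 PLC arrays and 6.38, 6.40 and 6.47 on Hep3B-labelled ones, a difference of 6.46 ± 0.06 (SE; limma adjusted p = 7.26e-21). CPS1, the mitochondrial entry enzyme of that cycle, rose by 3.47, HGD, which breaks down homogentisate from tyrosine, by 5.73, and HAL, the histidase, by 3.50. AASS of lysine breakdown fell by 2.17.

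The stretch upstream of the ALB start is shown because it holds a GTTAAT match, part of the motif known for HNF1 factors, in capitals; it covers the 250 bases before the start on the plus strand of chr4:73404037-73404286 (RefSeq, GRCh38.p14).
ALB: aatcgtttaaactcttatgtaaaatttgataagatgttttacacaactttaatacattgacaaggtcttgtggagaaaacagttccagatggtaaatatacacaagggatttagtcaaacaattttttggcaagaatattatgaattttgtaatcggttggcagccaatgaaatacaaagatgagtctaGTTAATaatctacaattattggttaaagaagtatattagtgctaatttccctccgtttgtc
GTTAAT was searched on both strands. It stood in 4.65% of 15384 promoters of this length, in 3.98% of those of genes called higher in PLC and in 5.33% of those of genes called lower, so the genes higher in PLC did not hold it more often.

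Other liver functions were split. Coagulation and fibrinolysis genes had 9 higher and 5 lower of 25 measured, against 7 higher and 9 lower as deposited. The higher ones include CPB2, an inhibitor of clot lysis (5.35), FGA, the fibrinogen alpha chain (4.72), and F2, prothrombin (3.04). With only unmarked probe sets, as above, FGA differed by 0.27 (limma adjusted p = 0.113) and was not called. The lower ones are led by PLAU, the urokinase plasminogen activator, with 4.72, 4.58 and 4.88 in PLC, against 10.66, 10.73 and 10.71 on Hep3B-labelled arrays, a difference of -5.97, and by TFPI2, a Kunitz protease inhibitor (-3.55), and PLAT, the tissue plasminogen activator (-2.47). Among 23 measured complement genes 6 were higher, with C5 at 2.99, and 5 lower, with CD55, which protects cells from complement, at -4.85.

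Cytochrome P450 genes, whose products oxidise drugs, steroids and fatty acids, had 6 higher and 4 lower of 34 measured, shares of 17.6% and 11.8% against 9.58% and 8.83% of all genes. These counts moved with the scaling and the arrays: 2 were higher and 19 lower as deposited, 11 higher and 3 lower after centring, and 3 higher and 4 lower on siRNA arrays. CYP4F3, a fatty acid and leukotriene hydroxylase, rose by 5.11. CYP1B1, an oxidase of polycyclic hydrocarbons and estradiol, had 4.22, 4.41 and 3.81 in PLC and 10.47, 10.46 and 10.43 on Hep3B-labelled arrays, a difference of -6.31. Conjugation and NRF2 target genes had 16 higher and 9 lower of 51, against 15 higher and 20 lower as deposited. GSTP1, the pi class glutathione transferase, had 12.23, 12.34 and 12.34 in PLC, against 6.24, 6.46 and 6.49 on Hep3B-labelled arrays, a difference of 5.91 ± 0.09 (SE; limma adjusted p = 1.10e-18). SLC7A11, the cystine importer, rose by 3.65 and AKR1B10, an aldo-keto reductase, by 3.35. ABCC3, an exporter of conjugates, fell by 4.52; its unmarked probe set differed by -0.40 and was not called, while 3 further ones were called in the same direction.

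Drug and bile acid transporters moved both ways, with 4 of 21 higher and 5 lower. ABCG2, an exporter of drugs and urate, had 9.98, 10.02 and 9.98 in PLC and 4.21, 4.43 and 4.18 on Hep3B-labelled arrays, a difference of 5.72. ABCB1, the multidrug exporter P-glycoprotein, had 6.03, 6.15 and 6.07 in PLC and 10.38, 10.31 and 10.49 on Hep3B-labelled arrays, a difference of -4.31. The 2 exporters were thus high in opposite lines. SLCO1B3, an uptake carrier of organic anions, fell by 4.83.

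**Figure D3:**
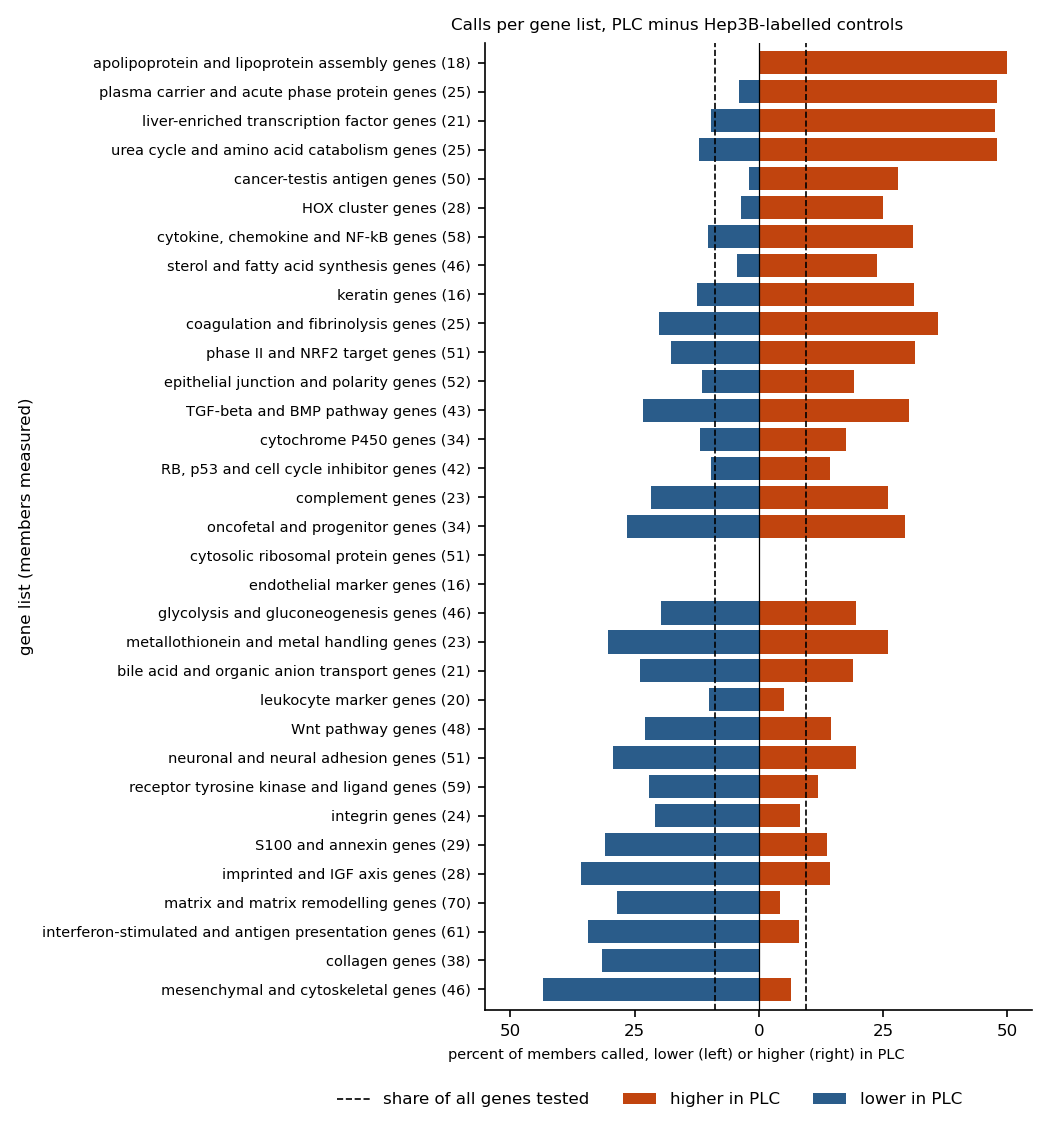
Percent of the measured members of each gene list called higher (right) or lower (left) in PLC than on Hep3B-labelled arrays, with the number measured in brackets; dashed lines mark the shares over all genes, 9.58% and 8.83%. Apolipoprotein genes have 9 of 18 higher and none lower, mesenchymal and cytoskeletal genes 43.5% lower, and ribosomal and endothelial lists have no call.

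The epithelial side was mixed and the mesenchymal side lower in PLC. Simple epithelia, hepatocytes included, carry the keratins KRT8 and KRT18. KRT8 had 11.08, 11.15 and 11.06 in PLC, against 7.02, 6.96 and 7.07 on Hep3B-labelled arrays, a difference of 4.08, and KRT18 rose by 2.64. KRT20, a keratin of gut epithelium, rose by 6.31. KRT7, a keratin of bile duct cells, had 5.41, 5.53 and 5.61 in PLC and 11.06, 11.13 and 11.13 on Hep3B-labelled arrays, a difference of -5.59, which none of its 3 further probe sets called; the unmarked one differed by -0.44. Over the list, 5 of 16 measured keratin genes were higher and 2 lower, against 4 higher and 8 lower as deposited. Epithelial junction and polarity genes had 10 higher and 6 lower of 52, with 8 higher and 17 lower as deposited and 21 higher and 5 lower after centring and scaling. CDH1, E-cadherin, rose by 4.35, VIL1, the microvillus protein villin, by 4.53 and SPINT2, a membrane protease inhibitor, by 4.93, while PPL, periplakin, fell by 4.18 and CLDN2, a pore-forming claudin, fell by 3.11.

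Of 46 measured mesenchymal and cytoskeletal genes 20 fell and 3 rose, with a median of -0.67. After centring and scaling by the median absolute deviation the list had 11 lower and 10 higher, and on the values as deposited 29 lower and 3 higher. CAV1, caveolin of the plasma membrane pits, had 7.80, 7.64 and 7.59 in PLC, against 12.96, 12.95 and 12.97 on Hep3B-labelled arrays, a difference of -5.29 ± 0.08 (SE; limma adjusted p = 7.67e-19). CAVIN1, which shapes the same pits, differed by -4.68, and GNG11, a G protein gamma subunit, by -4.61. TPM2, beta-tropomyosin of actin filaments, went the other way, with 11.46, 11.54 and 11.47 in PLC and 4.19, 4.44 and 4.52 on Hep3B-labelled arrays, a difference of 7.10. Of its 3 further probe sets 1 was called in that direction, and the unmarked one, at 0.42, was not called. The summed level of 11 mesenchymal or fibroblast markers was 66.6 to 67.7 in PLC, 86.8 to 87.2 on Hep3B-labelled arrays and 60.1 to 60.5 on SNU449-labelled ones. Of these markers COL1A2 (-7.52), SPARC (-5.7), VIM (-2.8) and AXL (-2.3) were called lower in PLC. The others were not called, among them COL1A1 (0.01), COL3A1 (0.69) and PDGFRB (0.04).

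Collagen genes were called in 1 direction in this scaling: 12 of 38 measured fell and none rose, with a median of -0.29. At an adjusted limma p under 0.05, 6 were higher, by less than the minimum difference. Centring gave 3 higher and 10 lower, and centring with scaling 4 higher and 10 lower. COL6A3, a chain of the microfibril collagen, had 4.37, 4.37 and 4.33 in PLC, against 12.13, 12.12 and 12.09 on Hep3B-labelled arrays, a difference of -7.76. COL1A2, a chain of fibrillar collagen, had 4.87, 4.85 and 4.99 in PLC and 12.46, 12.38 and 12.43 on Hep3B-labelled arrays, a difference of -7.52. All PLC arrays were thus low for both genes. The SNU449-labelled means were also low, 4.18 for COL6A3 and 5.54 for COL1A2.

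The basement membrane chains COL4A1 and COL4A2 behaved alike within this pair of lines. COL4A1 had 3.49, 3.59 and 3.91 in PLC and 11.19, 11.15 and 11.21 on Hep3B-labelled arrays, a difference of -7.52, and COL4A2 had 3.20, 3.10 and 3.24 in PLC and 10.90, 10.87 and 10.90 on Hep3B-labelled arrays, a difference of -7.71. Unlike the chains above, both were also bright on SNU449-labelled arrays, with means of 10.85 and 9.82. The 2 genes are transcribed away from each other from starts 126 bases apart, and the interval between them, chr13:110307158-110307283 on the plus strand (RefSeq, GRCh38.p14), is shown because both genes share it as their promoter; a CCAAT box is in capitals.
COL4A1 and COL4A2: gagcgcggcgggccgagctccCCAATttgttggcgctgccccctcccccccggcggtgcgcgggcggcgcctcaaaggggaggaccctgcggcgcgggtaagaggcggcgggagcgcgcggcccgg
CCAAT, searched on both strands, is common: it stood in 34.1% of promoters of 250 bases, in 34.6% of those of genes higher in PLC and in 33.4% of those of genes lower in PLC.

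Other matrix and matrix remodelling genes had 20 lower and 3 higher of 70, with a median of -0.40; this list also had 9 higher and 14 lower after centring. VCAN differed by -7.80, THBS2, a matricellular thrombospondin, by -6.03 and LOXL2, which crosslinks collagen, by -5.99. The 3 that rose were EFEMP1, a fibulin (5.93), LOXL4, a relative of LOXL2 (4.87), and LTBP1, which stores latent TGF-beta (2.73). LOXL4 had 10.68, 10.72 and 10.70 in PLC and 5.85, 5.73 and 5.89 on Hep3B-labelled arrays, so the 2 lysyl oxidase relatives were high in opposite lines. Of 24 integrin genes, receptors for matrix, 5 fell and 2 rose, while after centring and scaling 4 were called lower and 8 higher. ITGA3, a laminin receptor chain, differed by -3.82 and ITGB4, part of hemidesmosomes, by -3.06 (-0.44 and not called with unmarked probe sets).

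Most measured IGF-binding protein genes were lower in PLC. IGF-binding proteins hold insulin-like growth factors in the circulation and tissue. IGFBP7 had 6.46, 6.48 and 6.22 in PLC, against 13.02, 13.05 and 13.06 on Hep3B-labelled arrays, a difference of -6.66, and IGFBP5 (-6.39), IGFBP6 (-4.10), IGFBP4 (-4.04), IGFBP3 (-4.03) and IGFBP2 (-1.97) fell as well. IGFBP1, the form that liver secretes under low insulin, had 11.69, 11.44 and 11.61 in PLC and 8.94, 9.04 and 9.09 on Hep3B-labelled arrays, a difference of 2.55, which its further probe set did not call. Over the list of imprinted and IGF axis genes 10 of 28 measured fell and 4 rose, with 10 higher and 8 lower after centring.

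Receptor tyrosine kinases and their ligands had 7 higher and 13 lower of 59, or 11.9% and 22.0%, against 9.58% and 8.83% of all genes. As deposited 6 were higher and 34 lower, where 7.46% and 35.6% of all genes were. After centring and scaling 15 were higher and 8 lower, where 44.8% and 3.98% of all genes were. The counts of this list thus moved with the scaling, as did those of all genes. KLB, the co-receptor of the hormone FGF19, rose by 5.66, and FGFR3 and ERBB3 by 4.45 and 3.23. KLB had 10.23, 10.26 and 10.18 in PLC and 4.38, 4.64 and 4.66 on Hep3B-labelled arrays. The ligands HBEGF (-3.63) and FGF2 (-3.36) and the ephrin receptor EPHA5 (-5.53) fell. No PLC array overlapped with a Hep3B-labelled one for KLB.

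The BMP and TGF-beta pathway signals through SMAD proteins and is held back by secreted antagonists. ID4, an inhibitor of helix-loop-helix factors and a BMP target, had 10.29, 10.29 and 10.20 in PLC, against 2.34, 2.41 and 2.53 on Hep3B-labelled arrays, a difference of 7.83. FST, the activin antagonist follistatin, rose by 5.01, INHBE, an activin chain of hepatocytes, by 4.91 and BMP2 by 4.77. TGFB2 differed by -5.38, GREM1, a BMP antagonist, by -5.89 and FSTL1, a follistatin relative, by -7.86. In all, 13 of 43 measured members rose and 10 fell, while as deposited 12 were called higher and 14 lower.

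Wnt ligands act through FZD receptors, with LGR5 as an amplifier and SFRP and DKK proteins as secreted inhibitors. SFRP1 had 4.14, 4.14 and 3.64 in PLC, against 11.17, 11.18 and 11.13 on Hep3B-labelled arrays, a difference of -7.19. DKK1 (-6.26), the receptor FZD6 (-6.28) and the ligand WNT5B (-6.24) fell as well. LGR5 had 7.58, 7.52 and 7.69 in PLC and 2.28, 2.53 and 2.49 on Hep3B-labelled arrays, a difference of 5.16, and LEF1, a nuclear effector, rose by 4.09, DKK3 by 5.07 and FZD5 by 3.14. Of 48 measured members 7 rose and 11 fell, while after centring 15 were called higher and 7 lower.

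Of the 6 neutrophil-attracting CXCL chemokines measured in the list, 5 were higher in PLC, and CXCL2, with means of 8.88 in PLC and 8.60 on Hep3B-labelled arrays, was not called here but was after centring (1.57). CXCL chemokines with an ELR motif recruit neutrophils and are induced by IL-1 and TNF through NF-kB. CXCL5 had 11.21, 11.17 and 11.15 in PLC, against 2.30, 2.58 and 2.46 on Hep3B-labelled arrays, a difference of 8.73 ± 0.08 (SE; limma adjusted p = 5.58e-21). CXCL8, or interleukin 8, had 13.06, 12.93 and 12.97 in PLC and 8.32, 8.40 and 8.55 on Hep3B-labelled arrays, a difference of 4.56. CCL20, a chemokine of gut and liver, rose by 7.48 and the receptor IL1R1 by 6.40. CXCL1, CXCL3 and CXCL6, which neighbour CXCL5 and CXCL8 on chromosome 4, rose by 2.33, 2.83 and 2.99. By contrast IL6 had 3.37, 3.71 and 2.70 in PLC and 8.49, 8.50 and 8.62 on Hep3B-labelled arrays, a difference of -5.28, and LIF and PTX3, which belong to the same inflammatory setting, differed by -4.16 and -4.31. The list had 18 higher and 6 lower of 58 measured, with a median of 0.27, and 15 higher and 18 lower on the values as deposited.

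The promoters of CXCL1, CXCL5 and CXCL8 are shown because all 3 genes rose and each holds 1 match, in capitals, to GGAANTTCC, a palindromic core of the NF-kB motif; each covers the 250 bases before the start (RefSeq, GRCh38.p14), at chr4:73869143-73869392 on the plus strand for CXCL1, chr4:73998678-73998927 on the minus strand for CXCL5 and chr4:73740319-73740568 on the plus strand for CXCL8.
CXCL1: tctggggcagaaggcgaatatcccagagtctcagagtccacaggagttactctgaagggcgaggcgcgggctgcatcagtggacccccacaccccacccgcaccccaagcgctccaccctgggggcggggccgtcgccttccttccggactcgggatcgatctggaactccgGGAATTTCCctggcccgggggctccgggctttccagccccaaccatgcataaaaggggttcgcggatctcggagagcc
CXCL5: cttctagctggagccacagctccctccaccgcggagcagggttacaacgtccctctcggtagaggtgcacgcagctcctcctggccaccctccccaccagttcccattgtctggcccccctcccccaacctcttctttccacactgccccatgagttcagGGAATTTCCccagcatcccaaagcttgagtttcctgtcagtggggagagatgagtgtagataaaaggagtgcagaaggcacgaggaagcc
CXCL8: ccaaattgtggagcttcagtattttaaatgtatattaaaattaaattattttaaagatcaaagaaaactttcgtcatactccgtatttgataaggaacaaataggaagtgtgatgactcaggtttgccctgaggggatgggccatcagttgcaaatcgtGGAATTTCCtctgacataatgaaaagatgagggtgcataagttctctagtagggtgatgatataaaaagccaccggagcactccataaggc
The matches start 78, 90 and 91 bases before the start of CXCL1, CXCL5 and CXCL8. GGAANTTCC, searched on both strands, stood in 0.865% of 15384 promoters, in 1.35% of those of genes higher in PLC and in 0.648% of those of genes lower in PLC. The genes higher in PLC include the 3 shown, which were picked because they hold a match. The promoters of CXCL3 and CXCL6 are not shown.

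Of the 8 metallothionein genes measured in the list, 6 fell in PLC, and MT1M (-0.72) and MT3 (-0.54) were called lower on the values as deposited but not here. These small cysteine-rich proteins bind zinc and copper and are induced by metals and glucocorticoids. MT2A had 8.24, 8.22 and 8.17 in PLC, against 12.81, 12.82 and 12.73 on Hep3B-labelled arrays, a difference of -4.58 ± 0.07 (SE; limma adjusted p = 4.79e-19). MT1E had 7.55, 7.58 and 7.53 in PLC and 12.22, 12.25 and 12.16 on Hep3B-labelled arrays, a difference of -4.65. MT1X and MT1F differed by -4.57 and -4.40, and MT1G and MT1H by -4.33 and -3.99. The MT1 genes are near-identical copies, so a probe set of one can bind transcripts of another and the values of single MT1 genes are uncertain; the probe set of MT1G with no mark for cross-hybridisation in its ID gave a difference of 0.57. In the list of metallothionein and metal handling genes the other called members were mostly higher in PLC, with SLC39A4, a zinc importer, at 2.86 and BMP6, which signals iron status in liver, at 2.75, so that the list had 6 higher and 7 lower of 23.

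Metal response elements carry the core TGCGCNC or TGCACNC. The 250 bases before the starts of MT2A (chr16:56608334-56608583), MT1H (chr16:56669564-56669813) and MT1X (chr16:56682220-56682469), all on the plus strand (RefSeq, GRCh38.p14), are shown because all 3 genes fell; matches on either strand are in capitals.
MT2A: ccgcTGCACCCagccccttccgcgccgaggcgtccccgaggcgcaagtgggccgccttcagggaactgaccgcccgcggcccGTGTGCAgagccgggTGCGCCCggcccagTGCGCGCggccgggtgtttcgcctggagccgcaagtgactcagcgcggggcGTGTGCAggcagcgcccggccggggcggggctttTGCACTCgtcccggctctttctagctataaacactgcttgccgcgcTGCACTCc
MT1H: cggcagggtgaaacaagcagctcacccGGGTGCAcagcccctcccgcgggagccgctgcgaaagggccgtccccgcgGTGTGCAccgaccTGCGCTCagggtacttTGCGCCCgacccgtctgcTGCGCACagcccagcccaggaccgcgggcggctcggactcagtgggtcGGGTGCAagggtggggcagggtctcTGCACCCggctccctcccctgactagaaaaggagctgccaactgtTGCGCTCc
MT1X: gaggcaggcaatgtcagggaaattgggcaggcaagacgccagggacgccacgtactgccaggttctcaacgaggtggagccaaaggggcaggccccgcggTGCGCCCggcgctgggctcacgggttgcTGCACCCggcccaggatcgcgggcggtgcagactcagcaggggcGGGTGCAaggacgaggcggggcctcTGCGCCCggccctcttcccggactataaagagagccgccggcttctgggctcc
MT2A held 7 matches, MT1H 8 and MT1X 4. At least 1 match stood in 29.7% of 15384 promoters, at least 4 in 0.429% and at least 7 in 0.0390%. Among promoters of genes higher in PLC 32.4% held at least 1, and among those of genes lower in PLC 30.5%. In the same order 0.338% and 0.504% held at least 4, and 0.00% and 0.144% at least 7. The genes lower in PLC include the metallothionein genes shown.

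Some germ line genes were called higher in PLC. Cancer-testis antigens are genes of the male germ line, many on the X chromosome, that tumours can re-express. Of 50 measured members 14 rose and 1 fell, and 35 were not called, with a median of 0.35; 10 were called lower on the values as deposited. MAGEA4 had 11.26, 11.01 and 11.13 in PLC, against 2.84, 2.88 and 2.78 on Hep3B-labelled arrays, a difference of 8.30, and the SNU449-labelled mean was 2.76. MAGEA6 rose by 8.69, although MAGEA6 and MAGEA3 are near-identical and its probe set cannot be assigned to one of them with certainty. DDX43, a germ line RNA helicase, rose by 6.70 and SAGE1 by 6.03. MAGEA1 went against the list, with 5.03, 5.00 and 5.09 in PLC and 9.90, 9.97 and 9.92 on Hep3B-labelled arrays, a difference of -4.89.

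Oncofetal and progenitor genes were split, with 10 higher and 9 lower of 34 and a median of -0.05. LIN28B, which blocks let-7 maturation in fetal liver, averaged 10.99 ± 0.01 in PLC, against 2.99 ± 0.11 on Hep3B-labelled arrays (SD, n = 3 each), a difference of 7.99. AFP, the main fetal serum protein, had 7.52, 7.55 and 7.53 in PLC and 5.11, 5.20 and 5.13 on Hep3B-labelled arrays, a difference of 2.39. PROM1, a stem cell antigen, rose by 6.89 and CFTR, the chloride channel of bile ducts, by 4.74. CD44, the hyaluronan receptor, had 4.54, 4.45 and 4.49 in PLC and 9.63, 9.63 and 9.72 on Hep3B-labelled arrays, a difference of -5.17, and SOX9, a factor of bile duct precursors, fell by 3.21. PROM1 and CD44, both used as surface markers of liver cancer stem cells, were high in opposite lines. HOX cluster genes, which pattern the body axis, had 7 higher and 1 lower of 28, with HOXC13 at 3.28 and HOXC6 at 2.45, and their median was 0.01; as deposited 4 were higher and 12 lower.

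Interferon-stimulated and antigen presentation genes had 21 lower and 5 higher of 61, with a median of -0.57. These are 34.4% and 8.20%, against 8.83% and 9.58% of all genes. After centring they had 15 higher and 10 lower, where 37.4% of all genes were called higher and 4.28% lower. The counts of this list thus moved with the scaling, as did those of all genes. GBP1, a guanylate-binding protein induced by interferon gamma, had 6.13, 6.0 and 6.19 in PLC, against 9.49, 9.43 and 9.59 on Hep3B-labelled arrays, a difference of -3.40. GBP3 differed by -3.76, IFIT1, which binds viral RNA, by -3.33 and IFITM1, an antiviral membrane protein, by -3.19. BST2, or tetherin, rose by 3.11 and HLA-DPB1, a class II chain, by 3.94, with 7.86, 7.92 and 7.89 in PLC and 3.92, 3.96 and 3.95 on Hep3B-labelled arrays. HLA genes share sequence, and the probe set of HLA-DPB1 with no mark for cross-hybridisation in its ID gave -0.85.

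LDHB, a lactate dehydrogenase subunit, had the largest difference among the glycolysis and gluconeogenesis genes. It had 12.63, 12.62 and 12.61 in PLC, against 5.73, 5.56 and 5.74 on Hep3B-labelled arrays, a difference of 6.94 ± 0.08 (SE; limma adjusted p = 5.91e-20), and its SNU449-labelled mean was 4.68. The glucose carriers SLC2A2 of liver and SLC2A3 rose by 4.37 and 3.90, and PCK1, the cytosolic enzyme of gluconeogenesis, by 3.10. ENO2, the neuronal enolase, fell by 3.16. The list of glycolysis and gluconeogenesis genes had 9 higher and 9 lower of 46. Sterol and fatty acid synthesis genes had 11 higher and 2 lower of 46, with a median of 0.18 that was -0.01 as deposited. FABP5 and FABP1, intracellular fatty acid carriers, rose by 7.79 and 6.03. SCD5, a fatty acid desaturase, had 3.11, 2.82 and 3.26 in PLC and 10.22, 10.24 and 10.18 on Hep3B-labelled arrays, a difference of -7.15.

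The cell cycle inhibitors of chromosome 9 separated the lines. CDKN2A, which encodes a CDK inhibitor and the ARF protein, had 8.19, 8.12 and 8.10 in PLC, against 5.22, 5.29 and 5.69 on Hep3B-labelled arrays, a difference of 2.74. Its neighbour MTAP, an enzyme of methionine salvage, had 6.80, 6.75 and 6.80 in PLC and 3.19, 3.14 and 3.17 on Hep3B-labelled arrays, a difference of 3.61. CDKN2B rose by 2.54 and KLHL9, further along the same stretch, by 4.21; KLHL9 was picked with its values known. The 4 genes had SNU449-labelled means of 10.60, 7.17, 6.76 and 8.20. Copy number was not measured here. PLK2, a stress-induced kinase, had 4.13, 4.05 and 3.73 in PLC and 11.49, 11.45 and 11.56 on Hep3B-labelled arrays, a difference of -7.53. RB1 differed by -0.90 and was not called; in 1 of the other scalings it was called higher in PLC, by 1.05. The list of RB, p53 and cell cycle inhibitor genes had 6 higher and 4 lower of 42, and CDKN1A, a CDK inhibitor induced by p53, fell by 1.58. CDKN1A was not called after centring (-0.47) or after centring and scaling (0.03).

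Neuronal and neural adhesion genes had 10 higher and 15 lower of 51, against 15 higher and 12 lower after centring. CNTN1, contactin, rose by 5.17, whereas NRXN3, a neurexin, and SEMA3A, a guidance cue, differed by -6.38 and -5.98. S100 and annexin genes had 4 higher and 9 lower of 29, against 9 higher and 4 lower after centring. S100P had 10.87, 10.92 and 10.96 in PLC and 4.57, 4.49 and 4.55 on Hep3B-labelled arrays, a difference of 6.38, opposite to S100A6, and ANXA6, an annexin of membranes, fell by 4.65, against -0.03 (limma adjusted p = 0.734) with only unmarked probe sets. Of 20 measured leukocyte markers LYZ was the 1 that rose, and HLA-DRA and CD4 fell, with -1.10 and -1.0; CD4 lay at -0.97, under the minimum, without replicate 2 of either line, and neither was called after centring, at -0.93 and -0.51. No leukocyte marker was called lower in all 5 scalings, although limma called 16 lower as deposited and 2 here. Their summed level over 6 defining markers was 31.5 to 32.3 in PLC and 25.5 to 25.6 on Hep3B-labelled arrays, a gap that LYZ alone exceeds. Of 16 endothelial markers limma called none, and their median was -0.19. At an unadjusted limma p under 0.05, 2 were higher and 6 lower. At an adjusted one 2 were higher and 5 lower, all by less than the minimum difference.

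The same difference between lines was read a further time on the ATAD2 siRNA arrays, which share no array with the controls. Both readings use the same lines, normalization, probe sets and estimate of spread, so they are not independent. Line and batch cannot be told apart in either. On the siRNA arrays 3549 genes were called (17.9%), 1861 higher (9.41%) and 1688 lower (8.54%) in PLC. Of these calls 3066 matched a control call in direction, which is 84.2% of the control calls and 86.4% of the siRNA calls, and 0 genes were called in opposite directions by limma. All but 3 of the 3642 control calls kept their sign. All 24 genes with the largest differences were called there too: EDIL3 differed by -9.69, MAN1A1 by 8.77 and CGA by 9.07.

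The size of the line difference was also compared between the treatments. The difference on siRNA arrays minus that on control arrays passed an adjusted limma p of 0.05 for 1918 genes (9.70%), 4.76% more positive and 4.94% more negative, among them 642 of the control calls, of which 52 moved by at least 1. ALB differed by 6.51 on siRNA arrays, and its line difference dropped by 1.07 relative to controls (limma interaction adjusted p = 0.00271). On siRNA arrays ALB had 9.54, 9.78 and 9.44 in PLC and 2.85, 3.53 and 2.86 under the Hep3B label. The Hep3B-labelled controls were as dim, at 2.90, 3.16 and 3.02, so this change lay on the PLC side. FGA differed by 3.31 on siRNA arrays, and its line difference dropped by 1.41 (limma interaction adjusted p = 0.00744). C3, the central complement protein, rose by 1.69 in controls and differed by 0.52 on siRNA arrays. IGFBP5 differed by -5.19 on siRNA arrays and -6.39 in controls, and PTX3 by -5.67 on siRNA arrays and -4.31 in controls. The actin 5-prime minus 3-prime probe difference, a sign of RNA integrity, was -1.53, -0.58 and -1.39 on the PLC siRNA arrays and -0.82, -0.65 and -0.60 on PLC controls, and its part in these changes was not tested. Without replicate 2 of the PLC siRNA arrays the 1918 became 3323, and without replicate 2 of the Hep3B-labelled controls 1263.

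**Figure D4:**
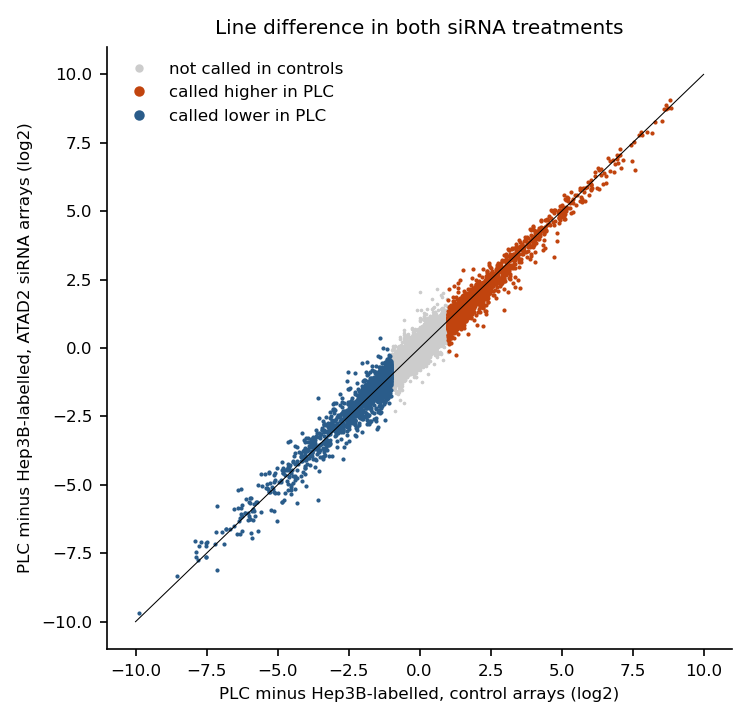
Difference PLC minus Hep3B-labelled on ATAD2 siRNA arrays (vertical axis, log2) against that on control arrays (horizontal axis, log2), 1 point per gene, coloured by the call on control arrays; the line marks equal differences. Genes called in controls lie along the line, 3066 of 3642 of them called in the same direction on the siRNA arrays.

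Some differences followed gene order. A scan chosen after the data were seen took the 8731 genes with a mean of at least 7 on the control arrays of either line, of which 15.4% were called higher and 14% lower, and listed runs of at least 6 neighbours called in 1 direction. It found 8 runs. On chromosome 1, 12 neighbours from PPIE to NFYC were all higher in PLC, by 1.29 to 4.25, and also higher than on SNU449-labelled arrays by 0.82 to 3.79. PPT1, a lysosomal thioesterase in that run, averaged 12.22 in PLC and 10.12 on Hep3B-labelled arrays, and SMAP2 9.23 and 6.98 in the same order. On chromosome 4, 13 neighbours from TMEM144 to PALLD were higher by 1.48 to 2.79, all 13 of them in each of the 5 scalings, and their median difference was 1.70 on siRNA arrays. Against SNU449-labelled arrays this run went both ways, with a lowest difference of -0.98 and a median of 0.31. With only unmarked probe sets NFYC of the first run differed by 0.80 and PALLD by 0.40, neither called.

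Of the other 6 runs, 4 were gene families or contained them. The 6 metallothionein genes on chromosome 16, described above, had differences of -4.65 to -3.99. On chromosome 4, ALB, AFP, CXCL8, CXCL6, CXCL1, CXCL5 and CXCL3 stood next to each other in the scan and were higher by 2.33 to 8.73. On chromosome 5, 9 protocadherin beta genes or pseudogenes, which mediate neuronal cell recognition, and TAF7 were lower, PCDHB5 with a difference of -6.37 and means of 2.96 in PLC and 9.33 on Hep3B-labelled arrays. Of these 10 genes 8 were called in all 5 scalings. TAF7 was not called after centring (-0.85) or after centring and scaling (-0.10). On chromosome 19, 7 pregnancy-specific glycoprotein genes of the placenta were lower, PSG4 with a difference of -4.63 and means of 5.18 in PLC and 9.81 on Hep3B-labelled arrays, while CGA, also a placental gene, was higher in PLC. The PCDHB genes and the PSG genes are families of related genes that share sequence, and single members are uncertain. The 7 neighbours on chromosome 8 from FABP5 to E2F5 were higher by 1.12 to 7.79, and 6 on chromosome 12 from ZDHHC17 to PAWR were lower, with differences of -2.60 to -1.13. Of those on chromosome 12, 1 was called in all 5 scalings, and ZDHHC17 and PAWR turned positive after centring.

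**Figure D5:**
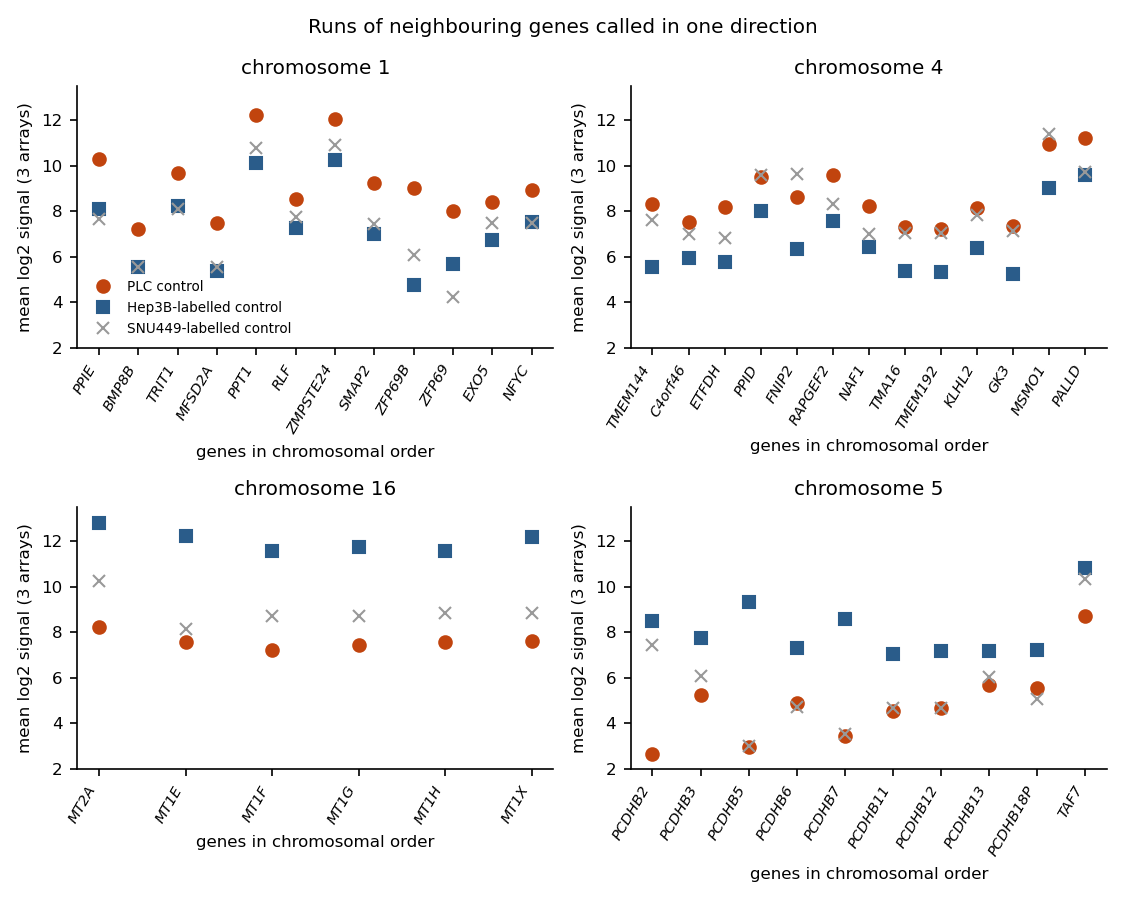
Mean log2 signal of 3 control arrays (vertical axis) of PLC, Hep3B-labelled and SNU449-labelled cells for the genes of 4 runs, in chromosomal order (horizontal axis). PLC lies above the Hep3B-labelled mean for all 12 genes of the chromosome 1 run and all 13 of the chromosome 4 run, and below it for the 6 metallothionein genes and the 10 genes of the chromosome 5 run.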

How the data were processed

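The data are 18 Affymetrix-type expression arrays of 3 liver cancer lines. The deposited table holds 54675 probe sets on a log2 scale, as judged from a range of 1.33 to 13.97. How the authors corrected background and normalized is not given in the sources used here. Per the submitters' processing notes, they used limma, with no version given. Sorted columns differed by up to 0.155 within a line and 1.51 between lines, so the columns were quantile normalized over all arrays. The platform annotation named 1 gene for 41097 probe sets, several for 1801 and none for 11777; symbols of 41043 were updated from RefSeq, and the probe set with the highest mean stood for each of 19775 genes. The linear model had 1 mean per group (limma 3.58.1, R 4.3.3, 12 residual and 4.01 prior degrees of freedom), with Benjamini-Hochberg adjustment over all genes; an exact permutation test with 3 against 3 cannot give a two-sided p under 0.1. The number of arrays limits the precision. The labels call the samples biological replicates. Named genes are the 12 largest called differences per direction without overlap between groups, up to 4 called members per direction of 33 lists, and ATAD2, RB1, ALB and AFP; genes of the neighbour runs, MT1G, MT1H, MT1M, MT3, CXCL2, IGFBP2, IGFBP3 and KLHL9 were picked with their values known. Members and lists were chosen with earlier results of these data known. The procedure was tested on simulated data. Other scalings, filters, probe set rules, thresholds, a replicate block and left-out arrays were tried.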

Additional observations from a re-analysis of the deposited data

Results flagged for a closer look

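Each gene below was picked out because its PLC minus Hep3B-labelled difference on ATAD2 siRNA arrays differed from that on control arrays by the interaction test of limma (adjusted p under 0.05). The value given is the difference on siRNA arrays minus that on control arrays, in log2 units. By itself it does not say in which line the gene changed, and a gene near the array background in a line can hardly fall there.

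Among genes higher in PLC the difference was smaller on siRNA arrays for the hepatocyte genes FGA (-1.41), C3 (-1.18), ALB (-1.07), SERPINA1 (-0.55), FOXA3 (-0.55), HAL (-0.54), ITIH2 (-0.45), ASS1 (-0.45), CEBPA (-0.44), AFP (-0.43), SLC2A2 (-0.42), APOA2 (-0.39), HGD (-0.39), APOC1 (-0.36) and F2 (-0.33). The same held for the chemokines CXCL6 (-1.61), CXCL1 (-0.96) and CCL20 (-0.65). Keratin, adhesion and cytoskeletal genes with a smaller difference were KRT8 (-0.94), CDH1 (-0.57), KRT18 (-0.53), TPM2 (-0.52) and KRT20 (-0.49), and FZD5 of the Wnt pathway had -0.59. DKK3 (0.52), also higher in PLC, had a larger difference on siRNA arrays. So had ATAD2 (1.18), the target of the siRNA, which was higher in PLC by less than the minimum for a call and fell further on the Hep3B-labelled arrays than in PLC.

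Among genes lower in PLC the difference was smaller in size on siRNA arrays for IGFBP5 (1.19), KRT7 (1.0), ITGB4 (0.86), CAV1 (0.77), COL4A2 (0.65), HBEGF (0.62), IFIT1 (0.55), FGF2 (0.53), COL6A3 (0.51), CDKN1A (0.49), EPHA5 (0.48), CD4 (0.47), ENO2 (0.40), ITGA3 (0.34) and ZDHHC17 (0.26). It was larger in size for PTX3 (-1.36), GREM1 (-1.05), TFPI2 (-0.94), CD55 (-0.76), CEBPD (-0.68), GBP1 (-0.65), IGFBP4 (-0.57), PLAT (-0.50), NR2F1 (-0.39) and TAF7 (-0.39).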

How the results depend on the processing

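On control arrays the 3642 calls became 8510 on the values as deposited, 8236 after median centring, 9638 after centring and scaling by the median absolute deviation, 2416 without the dimmest 50% of genes and 8663 with every probe set tested by itself. They became 13953 with no minimum difference and 1255 with a minimum of 2. On ATAD2 siRNA arrays the 3549 calls became, in the same order, 7744, 7704, 9619, 2344, 8323, 13787 and 1207. Dropping genes, adding probe sets and changing the minimum change what is tested; the cause of the shifts with scaling was not tested. Leaving out 1 array at a time gave 3624 to 3678 calls on control arrays and 3543 to 3602 on siRNA arrays. The 1918 genes whose line difference changed after siRNA ranged from 1263 (without Hep3B control replicate 2) to 3323 (without PLC ATAD2 siRNA replicate 2).

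The replicate block left 3642 and 3549 calls and gave 1763 for the changed differences. Same-numbered PLC and Hep3B-labelled controls had correlations of deviations from group means of -0.048, 0.006 and -0.029. Controls with different numbers had -0.045 to 0.069. On siRNA arrays same-numbered samples had 0.039, 0.045 and 0.035, and those with different numbers -0.035 to 0.005. These small values cannot show whether same-numbered samples share more than the number. No called gene named in the text lost its call under the block.

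Of 171 named genes that were called, 152 kept call and direction in all alternatives run. Differences turned sign for CEBPD (0.57), CDKN1A (0.03), ZDHHC17 (0.76) and PAWR (0.92) after centring and scaling, and for ZDHHC17 (0.12) and PAWR (0.08) after centring. RB1, not called, was called at 1.05 after centring and scaling, and ATAD2, not called, at 2.13 after centring, 2.94 after centring and scaling and 1.01 after cyclic loess. With only probe sets without a letter mark in the ID, MT1G gave 0.57 and HLA-DPB1 -0.85, and 10 called genes lost the call (ALB, AMBP, FGA, TPM2, KRT7, ANXA6, ABCC3, ITGB4, NFYC and PALLD); the cause was not tested. HLA-DRA lost its call after centring, cyclic loess (-0.89) and with the mean of probe sets (-0.51), and CD4 with the last at -0.21. CD4 lost its call without Hep3B control replicate 2 or PLC control replicate 2 or 3, at -0.97 to -0.98. TAF7 lost its call after centring (-0.85) and after centring and scaling (-0.10). CDKN1A (-0.47) and CEBPD (-0.13) also lost theirs after centring. Signals near the array background bound the size of the largest differences.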

Other observations

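Genes higher and lower in PLC than on Hep3B-labelled arrays were spread unevenly over the chromosomes. On chromosome 15, 21.1% of 612 genes were called higher and 5.39% lower, and on chromosome 21 16.1% of 242 were higher and 6.61% lower. Chromosome 14 leaned the other way, with 4.26% of 611 genes higher and 15.9% lower, as did chromosome 10, with 7.08% of 777 higher and 14.4% lower. Over all genes the shares were 9.58% and 8.83%. These shares have no test, neighbouring genes are not independent, and DNA copy number was not measured here.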
